A study of Mus musculus with 2 samples.

Results

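S100a8, S100a9, Camp, Ngp, Ltf, Lcn2, Retnlg and Mmp8 are transcribed at very high levels as neutrophils mature, and were followed here as alarmin and secondary granule genes. These 8 genes were taken by symbol from the 31053 genes counted in 2 libraries of single cells from mouse bone marrow. Both libraries came from wild-type C57BL/6J mice, and both are labelled as haematopoietic stem cells (HSCs). The naive library is from untreated mice. The Listeria library is from mice sampled 6 weeks after a challenge with the bacterium Listeria monocytogenes. For both groups the labels state 6 to 8 weeks of age, and do not say if this was at challenge or later. The files of the Listeria library carry a name that refers to a knockout, while its labels give wild type, and it is called by its labels. How the HSCs were purified and how many mice were pooled is not given in the sources used here.

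Neutrophils make their granules in waves as they mature in the marrow. Primary granules with elastase and myeloperoxidase come first, in promyelocytes. Secondary or specific granules, with lactoferrin and cathelicidin, follow in myelocytes and metamyelocytes, and gelatinase granules come last. S100a8 and S100a9 encode the subunits of calprotectin, an abundant cytosolic protein that binds calcium, zinc and manganese and acts as an alarmin once it is released. Camp encodes the antimicrobial peptide cathelicidin. Ngp encodes neutrophilic granule protein, a relative of cystatins and cathelicidins. Ltf encodes lactoferrin, which binds iron, and Lcn2 encodes lipocalin 2, which captures the iron carriers of bacteria. Retnlg encodes a resistin-like secreted protein, and Mmp8 the neutrophil collagenase.

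The kept cells were 6375 naive and 4839 Listeria barcodes with at least 2500 molecular identifiers (UMIs, 1 for each transcript caught), at least 500 genes and at most 10% mitochondrial UMIs. Their median depth was 6972 and 7239 UMIs, out of library totals of 64619150 and 43895966. The libraries shared 14 kept barcodes, against 4.54 from independent draws of the barcode list. HSC-like clusters, led by genes such as Procr, Hlf and Mecom, held 1189 naive cells (18.7%) and 652 Listeria cells (13.5%), and markers of B cell, megakaryocyte, T cell and other lineages defined further clusters, which goes against a library of HSCs alone. A pair of unnamed clusters counted 14 and 13 of 18 HSC markers but were led by other genes. The doublet caller marked 1 cell in each library, a rate too low to have worked, and doublets remain. Levels are UMIs per 1000000 UMIs of the cells in question (CPM), not divided by gene length because each UMI of a 3′ kit tags 1 transcript end. With 1 library per group there is no replicate check and no test. All intervals are exact 95% intervals that cover counting error only, and every ratio compares these libraries and not the conditions.

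S100a8 and S100a9 lie side by side on chromosome 3, and Camp, Ngp and Ltf lie within the same stretch of chromosome 9 (GRCm38, GENCODE vM21 annotation). S100a8 (ENSMUSG00000056054) spans 90668978 to 90670035 on the plus strand and S100a9 (ENSMUSG00000056071) 90692632 to 90695721 on the minus strand. They are 22.6 kb apart with 0 protein-coding genes between them. Camp (ENSMUSG00000038357) spans 109847379 to 109849617 on the minus strand of chromosome 9. Ngp (ENSMUSG00000032484) follows at 110419747 to 110423012 and Ltf (ENSMUSG00000032496) at 111019271 to 111042767, both on the plus strand. The gaps are 0.570 Mb with 8 protein-coding genes and 0.596 Mb with 20. Mmp8 (ENSMUSG00000005800) lies far from them on the same chromosome, at 7558456 to 7568485 on the plus strand. Lcn2 (ENSMUSG00000026822) is on chromosome 2 at 32384633 to 32388252, minus strand, and Retnlg (ENSMUSG00000022651) on chromosome 16 at 48872621 to 48874496, plus strand. No annotated gene overlaps any of the 8.

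The stretches before the starts of 2 pairs of genes whose levels moved closely together from cell to cell, S100a8 with S100a9 and Ngp with Ltf, are shown first (RefSeq, GRCm38.p6, 5′ to 3′ on the gene's strand). Each holds 150 bases that end before the first annotated exon. Capitals mark matches to TTNNGNAA on either strand, a loose form of the motif bound by C/EBP factors, the family to which the granulocyte factor Cebpe belongs.
S100a8 promoter, chr3:90668828-90668977, plus strand: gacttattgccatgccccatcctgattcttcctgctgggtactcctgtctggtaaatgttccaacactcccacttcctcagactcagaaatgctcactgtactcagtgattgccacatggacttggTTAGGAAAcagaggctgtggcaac
S100a9 promoter, chr3:90695722-90695871, minus strand: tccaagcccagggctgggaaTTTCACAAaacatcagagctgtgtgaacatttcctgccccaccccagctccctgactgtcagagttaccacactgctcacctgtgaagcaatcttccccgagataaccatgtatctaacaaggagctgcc
Ngp promoter, chr9:110419597-110419746, plus strand: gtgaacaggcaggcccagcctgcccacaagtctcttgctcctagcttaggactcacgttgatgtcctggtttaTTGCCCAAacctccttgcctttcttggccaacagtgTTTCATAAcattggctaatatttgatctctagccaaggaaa
Ltf promoter, chr9:111019121-111019270, plus strand: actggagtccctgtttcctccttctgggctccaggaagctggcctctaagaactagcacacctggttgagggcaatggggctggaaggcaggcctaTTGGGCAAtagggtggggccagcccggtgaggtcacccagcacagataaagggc
Ngp has 2 matches in its window, at 138 and 102 bases before the RefSeq start. The other genes shown have 1 each, at 117 bases for S100a8, 130 for S100a9 and 75 for Ltf. In the 250 bases before the start, 7 of the 8 genes have at least 1 match, all but Camp, against 36.9% of 27025 promoters. A match is a run of letters and not evidence of binding.

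Nearly all UMIs of the 8 genes in kept cells lay in 1 cluster, the neutrophil-like one. It was found and named without them: clustering left them out, and the name came from 20 other neutrophil markers, all 20 of which were counted in it. It held 141 naive cells, or 2.21% of the library (1.86% to 2.60%), and 134 Listeria cells, or 2.77% (2.33% to 3.27%). These cells carried 98.5% (naive) and 99.1% (Listeria) of the UMIs of the 8 genes in kept cells, on 3.10% and 3.36% of all kept UMIs. Among its cells the 8 genes summed to 223498 CPM in the naive library and 179620 in the Listeria library. The median cell gave them 25.3% (naive) and 24.4% (Listeria) of its UMIs, and the highest cells gave 49.4% and 46.5%.

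The alarmin pair led in both libraries. S100a8 stood at 79875 CPM (79434 to 80317) in naive and 60634 (60214 to 61056) in Listeria neutrophil-like cells, and S100a9 at 80542 and 65398. At least 1 S100a8 UMI was seen in 97.2% of naive and 98.5% of Listeria neutrophil-like cells, at median depths of 9713 and 7658 UMIs. The same shares remained after each cell was thinned to 2500 UMIs. The pair made up 71.8% (naive) and 70.2% (Listeria) of the UMIs of the 8 genes. In the single most loaded cell for each gene there were 2801 UMIs of S100a8 and 2774 of S100a9, both in the naive library.

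The specific granule genes came next and were seen in fewer cells. Camp was at 26676 CPM in naive and 19712 in Listeria cells, with a UMI in 79.4% and 76.1% of them. Ngp was at 18654 and 17908 CPM, Lcn2 at 7579 and 7081, and Ltf at 4461 and 4417. Ltf was patchy: its UMIs were found in 51.8% of naive cells and in 67 of the 134 Listeria cells (45.4% and 45.5% after thinning), with a median of 1 and 0.5 UMIs per cell and a maximum of 225 and 200. Retnlg stood at 5276 CPM in naive and 3990 in Listeria cells, seen in 66.7% and 65.7%. It was at 11407 and 9205 CPM when each cell had the same weight. Mmp8 was the scarcest, at 436 and 479 CPM, seen in 36.2% and 37.3% of the cells (32.6% and 35.8% after thinning).

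**Figure D1:**
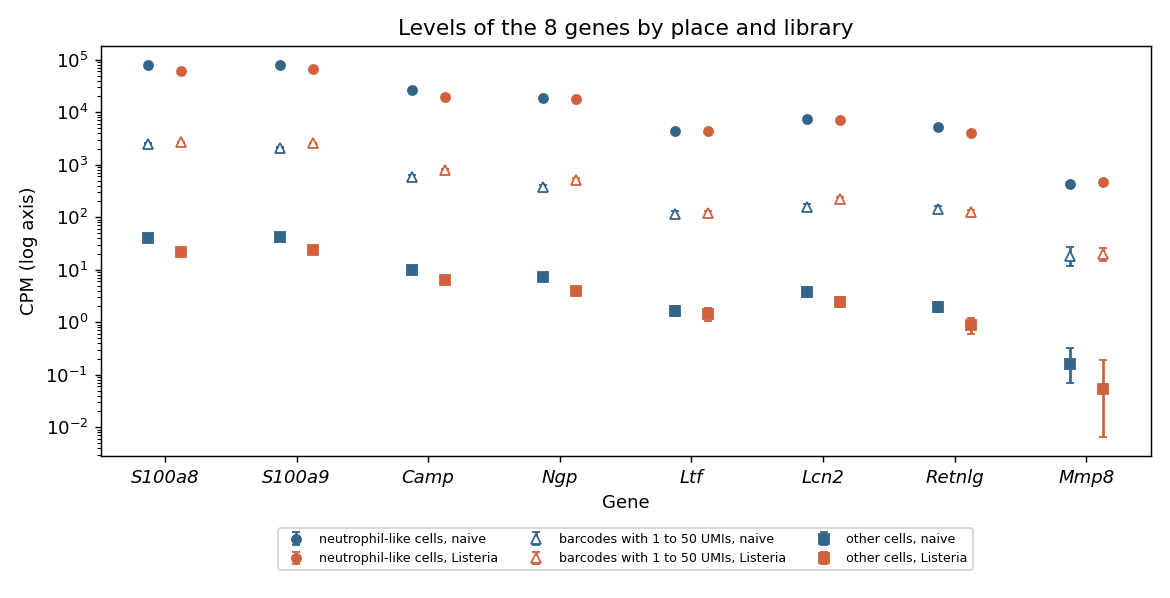
Level of each gene (CPM, log axis) in neutrophil-like cells (circles), in barcodes with 1 to 50 UMIs (open triangles) and in all other kept cells (squares), naive in blue and Listeria in orange, with 95% counting intervals. For every gene the circles lie highest, from 436 to 80542 CPM, the triangles between 18.2 and 2672 CPM, and the squares lowest, at 42.5 CPM or less.

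No gene of the 8 differed by over 1.5-fold between the libraries in neutrophil-like cells, in either direction. Among the 5473 genes with at least 50 UMIs there, 9.96% were higher and 3.4% lower in the Listeria library by that measure, and the median log2 ratio (Listeria over naive) was 0.13. For the 8 genes the median log2 ratio was -0.20. Camp had the lowest ratio, -0.44 (-0.46 to -0.41), followed by Retnlg at -0.40 and S100a8 at -0.40. S100a9 was at -0.30, Lcn2 at -0.10, Ngp at -0.06 (-0.08 to -0.03), Ltf at -0.01 (-0.06 to 0.04) and Mmp8 at 0.14 (-0.02 to 0.29). Scaling by TMM factors or by median-ratio size factors lowered every ratio in these cells by 0.11 or 0.14. The Mmp8 ratio was -0.0029 under the latter, and the Ltf ratio was 0.05 once the cells with the 5% highest doublet scores were removed, so the sign of both turned. With cells weighing equally, Ngp (18569 CPM naive, 21086 Listeria), Lcn2 (8423 and 9485) and Ltf (4847 and 5576) were higher in the Listeria library, as they were at clustering resolution 2 (Ngp 29485 and 32818, Lcn2 14686 and 14814, Ltf 8888 and 9277). The direction of these 3 genes thus depended on the processing, while S100a8, S100a9, Camp and Retnlg were lower in the Listeria library in each of these alternatives. The intervals come from UMIs, not cells, and take no account of how cells differ within a library.

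Cells differed far more than the libraries did. Neutrophil-like cells were split without the 8 genes into subsets, numbered from high to low primary granule genes (Mpo, Elane, Prtn3, Ctsg) against late genes (Mmp9, Cxcr2, Il1r2). The order is one of expression and not a measured time. Subset 1 (26 naive and 30 Listeria cells) had Elane, neutrophil elastase, at 16975 CPM and the late chemokine receptor Cxcr2 at 1.19. Subset 2 (12 and 10 cells) had the same enzymes with histone genes of dividing cells. Subset 4 (16 and 12 cells) was led by histone genes, the mitotic gene Top2a and Chil3, a chitinase-like granule protein, at 10053 CPM, with Elane at 101 CPM. Subset 5 (29 and 38 cells) was led by Mmp9, the gelatinase, at 999 CPM, with the surface protein gene Ly6g at 730. Subset 6 (37 and 27 cells) had the highest Cxcr2, 476 CPM, and the interleukin gene Il1b among its leading genes. Subset 3 (18 and 14 cells) was led by Elane together with Sox4, Ctla2a and Adgrg1. Its summed B cell markers stood at 821 CPM, against 13.95 to 54.0 in the other 5 ordered subsets, and its median doublet score was the highest, 0.115. Markers of HSC-like (614 CPM), multipotent progenitor-like (981) and erythroid-like cells (239) were also highest in subset 3. Those of the other non-neutrophil classes were highest in ordered subset 1 or 6. Subset 7 was 6 cells led by the basophil genes Mcpt8 and Prss34, and held 7 UMIs of the 8 genes in all.

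The 8 genes had 3 peak positions along this order, subset 4 for Camp, subset 5 for 5 genes and subset 6 for Retnlg and Mmp8, and each peaked in the same subset in both libraries. How many of all genes peaked in each subset was not counted. S100a8 and S100a9 were already high in subset 1. S100a8 was there at 42456 CPM in naive and 34185 in Listeria cells, and reached 140690 and 111824 in subset 5. S100a9 went from 37235 and 30006 CPM in subset 1 to 144218 and 126050 in subset 5. In subset 6 both stayed high, with S100a9 at 111828 and 113277 CPM. From subset 1 to subset 5, S100a8 thus differed by 3.31-fold (naive) and 3.27-fold (Listeria), and S100a9 by 3.87-fold and 4.201-fold.

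Camp peaked earlier than its neighbours on chromosome 9. It stood at 57835 CPM in naive and 59625 in Listeria cells of the dividing subset 4, at 47812 and 42078 in subset 5, and at 8717 and 2497 in subset 6. Ngp went from 2467 and 3051 CPM in subset 1 to 42041 and 48477 in subset 4 and 47591 and 50614 in subset 5, and stood at 11225 and 6242 in subset 6. Ltf had the widest range of the specific granule genes. It was nearly missing in subset 1, with 10 naive and 13 Listeria UMIs (24.6 and 29.98 CPM), and reached 15503 and 15130 CPM in subset 5. From subset 1 to subset 5 that is a 559-fold difference with the libraries joined, against 4.77-fold for Camp. Camp itself was highest in subset 4, at 58542.5 CPM, and lowest in subset 6, at 6581 CPM, with the libraries joined. In subset 6 Ltf stood at 2169 and 1612 CPM, with a UMI in 24.3% and 22.2% of the cells. Lcn2 followed Ltf in its peak, at 22708 and 21619 CPM in subset 5, but was seen in more of the late cells, with a UMI in 94.6% and 100% of those in subset 6.

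Retnlg and Mmp8 peaked last. Retnlg was at 264 and 302 CPM in subset 4, 6876 and 6121 in subset 5 and 31009 and 32369 in subset 6. Every cell of subset 6 held a Retnlg UMI in both libraries. Mmp8 had 0 UMIs in subsets 1 and 2 of both libraries. With the libraries joined, such a count has an upper limit of about 3 UMIs at 95% (1-sided, unlike the intervals elsewhere). It stood at 1105 and 1356 CPM in subset 5 and at 1948 and 2487 in subset 6. In that last subset the UMIs of Retnlg outnumbered those of Camp 3.56 to 1 in the naive and 12.96 to 1 in the Listeria library. In subset 4 the same ratio was 0.00456 and 0.00507.

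**Figure D2:**
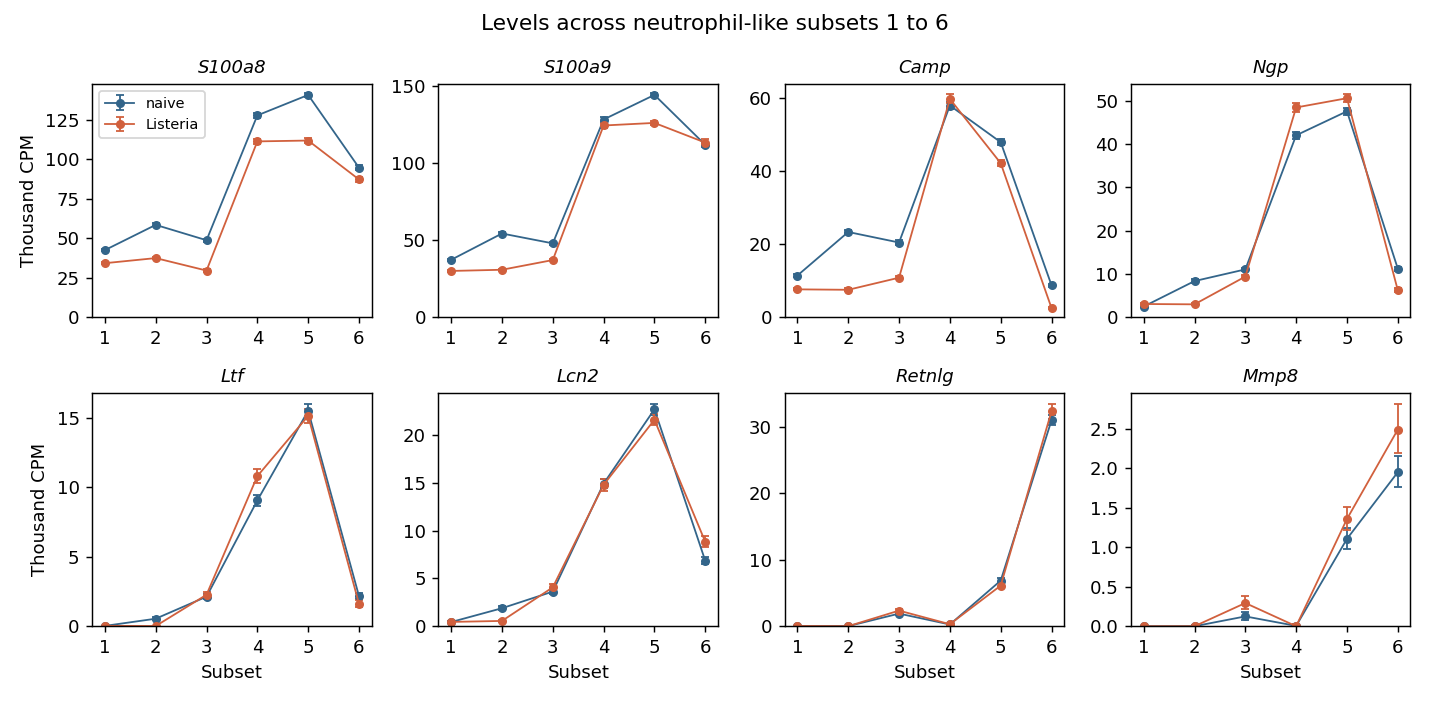
Level of each gene (CPM divided by 1000, axis from 0) in neutrophil-like subsets 1 to 6, ordered from primary granule genes to late genes, naive in blue and Listeria in orange, with 95% counting intervals and lines only to guide the eye. Camp is highest in subset 4, S100a8, S100a9, Ngp, Ltf and Lcn2 in subset 5, and Retnlg and Mmp8 in subset 6, in both libraries.

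Single cells showed which genes went together. Across the 269 neutrophil-like cells of subsets 1 to 6, which share libraries and differ in depth, Spearman's rho of the share of UMIs was 0.94 for S100a8 with S100a9. It was 0.89 for Ngp with Ltf, 0.87 for Camp with Ngp and 0.79 for Retnlg with Mmp8. Although Camp peaked in another subset than Ngp, it went more closely with Ngp than S100a8 (0.73) or S100a9 (0.66) did. Camp with Retnlg gave -0.23 and Camp with Mmp8 -0.26, so Camp was weakly and inversely ordered with the pair that peaked last. The share of a cell's UMIs taken by the 8 genes together separated subsets 4 and 5 from subset 1. In subset 5 the lowest cell was at 30.2% (naive) and 28.6% (Listeria), above the highest cell of subset 1, at 25.3% and 25.5%.

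**Figure D3:**
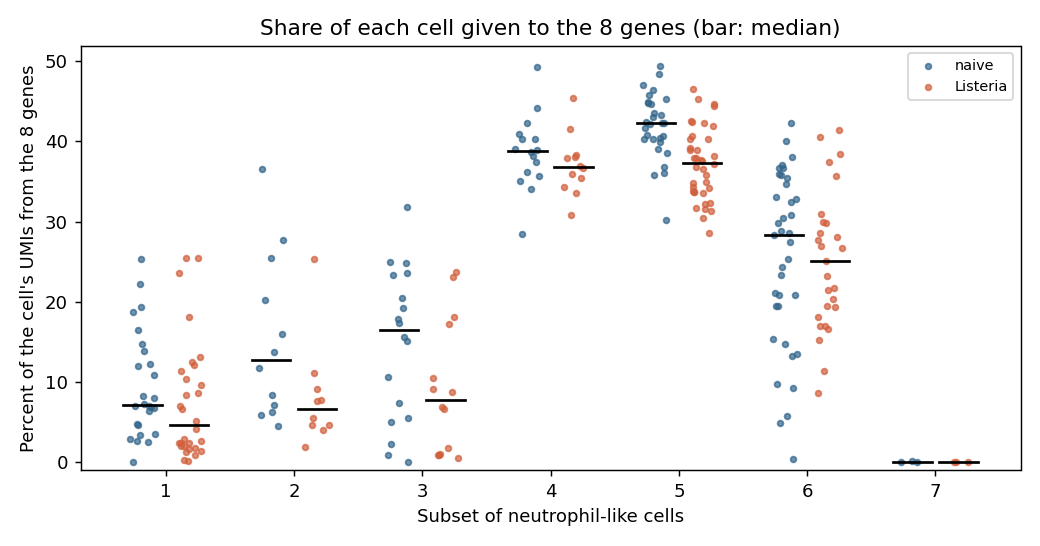
Percent of each neutrophil-like cell's UMIs that came from the 8 genes, by subset, 1 point per cell, with the median as a bar, naive in blue and Listeria in orange. Medians are 42.3% and 37.4% in subset 5 and 7.13% and 4.63% in subset 1, and the 6 cells of subset 7 lie at or near 0.

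Within subsets, the libraries differed by over 1.5-fold in some of the genes in subsets 2, 3 and 6 and in none in subsets 1, 4 and 5. In subset 4, 7 of the 8 genes had enough UMIs and their log2 ratios lay between -0.20 and 0.26, and in subset 5 those of all 8 lay between -0.33 and 0.30. None passed 1.5-fold in either subset, where 11.5% and 20.5% of genes were higher and 7.49% and 5.23% lower. In subset 5 the 8 genes took 426502 (naive) and 374792 (Listeria) CPM, so the shares of all genes there are not independent of them. In subset 1, 0 of 5 passed it (9.13% of all genes higher, 5.51% lower). In subset 2 all 6 genes with enough UMIs were lower in the Listeria library, where 5.53% of all genes were lower and 11.4% higher. Camp stood there at 23280 CPM in naive and 7487 in Listeria cells (log2 -1.64), and S100a8 at 58439 and 37419 (-0.64). These are 12 cells against 10, whose member share ran from 4.53% to 36.5% in the naive and from 1.91% to 25.3% in the Listeria library, so the cells overlapped. Without the most loaded cell of each library the Camp ratio was -1.97.

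Subset 6 differed in 2 of its 8 genes by over 1.5-fold, both lower in the Listeria library, where 10.9% of all genes were lower and 13.5% higher. Camp had a log2 ratio of -1.80 (-2.00 to -1.61) and Ngp of -0.85, while Lcn2 was at 0.37 and Mmp8 at 0.35. Camp was seen in 40.5% of naive and 40.7% of Listeria cells there, with a median of 0 in both, so its UMIs rested on few cells. A single naive cell held 741 of the 1696 Camp UMIs, and a single Listeria cell 153 of 254. Without the most loaded cell of each library the ratio was -2.46 for Camp and -1.08 for Ngp, and the Ltf ratio moved from -0.43 to -0.82. In subset 3, Camp (-0.92) and S100a8 (-0.72) were lower and Mmp8 (1.24) was higher by over 1.5-fold, where 14.3% of all genes were higher and 7.46% lower. Without subsets 3 and 7, 0 of 8 genes passed 1.5-fold in neutrophil-like cells, and the ratio of the sum was -0.31.

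Other genes of neutrophil granules and maturation were read from lists beside the 8, and their counts stand beside the 9.96% of all genes that were higher and the 3.4% that were lower in these cells. Of 10 primary granule genes with enough UMIs, 0 were higher and 0 lower by over 1.5-fold in the Listeria library. Elane was at 7838 CPM in naive and 7044 in Listeria neutrophil-like cells, Prtn3, proteinase 3, at 5486 and 6375, and Mpo, myeloperoxidase, at 2758 and 3073. Srgn, the proteoglycan that packs granule proteins, was at 2740 and 2763. Of these 10, 8 were highest in subset 1 or 2. Mpo, Elane, Prtn3 and Ctsg, which helped set the order of the subsets, are among them, so this count is partly fixed by the order. Of 14 other specific granule genes, 0 differed by over 1.5-fold and the median log2 ratio was -0.23. Lyz2, lysozyme, was at 7135 and 6060 CPM and Chil3 at 3214 and 2410. Wfdc21 was at 2630 and 2822 CPM and Pglyrp1, which binds bacterial peptidoglycan, at 1951 and 1557. Like 5 of the 8 genes described here, 10 of these 14 were highest in subset 5. The share of all genes that were highest in each subset was not counted, so these counts have no background beside them.

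Genes of the later granules and of the cell surface followed. Of 9 gelatinase granule and secretory vesicle genes, 0 differed by over 1.5-fold. Mmp9 was at 345 CPM in naive and 335 in Listeria cells, Anxa1, annexin A1, at 1293 and 1430, the integrin gene Itgam at 289 and 257, and Mcemp1 at 231 and 235. Of 16 surface receptors, 14 were highest in subset 6, where Retnlg and Mmp8 also were. Cxcr2 and Il1r2 of this list helped set the order of the subsets, so that count is partly fixed by the order. It too has no share of all genes beside it. In that list 0 were higher and 1, Siglece, was lower by over 1.5-fold (log2 -0.59, -1.19 to -0.02). The C-type lectin Clec4e was at 354 and 361 CPM, the leukotriene receptor Ltb4r1 at 285 and 390, Trem1 at 257 and 251, and Ly6g at 235 and 196.

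Among 9 granulocyte transcription factors 0 were higher and 2, Cebpd and Klf4, lower by over 1.5-fold. Cebpd was at 285 CPM in naive and 155 in Listeria cells (log2 -0.87, -1.12 to -0.63). Cebpe, which is required for specific granules, was at 506 and 357 CPM (log2 -0.50) and highest in subset 4, at 683 CPM, where Camp also was. Cebpb was at 473 and 451 CPM and Spi1, which encodes PU.1, at 400 and 466. Klf4 had 60 and 33 UMIs (log2 -0.61, -1.27 to 0.03), and 78 of these 93 lay in the 32 cells of subset 3. Without subsets 3 and 7 it had 12 and 3 UMIs, too few to compare, while Cebpd stood at -0.88 and Siglece at -0.68. Siglece and Klf4 were named after their values were seen. Of the receptors and partners of the proteins, 0 of 5 with enough UMIs differed by over 1.5-fold. Bsg, which encodes an S100A9 receptor, was at 120 and 124 CPM, Cd33 at 107 and 106, and the formyl peptide receptors Fpr1 and Fpr2 at 51.5 and 75.1 and at 56.5 and 68.3. Tlr4, the receptor most often tied to calprotectin, had 4 naive and 12 Listeria UMIs, and Ager had 4 and 0, too few to compare.

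Across all 22 clusters, the gene with the pattern most like the mean of the 8 was Wfdc21 (Pearson's r = 0.995 on log2 CPM with 5 added, among 5797 genes of at least 50 CPM in some cluster). It was followed by Chil3 (0.991), Ly6g (0.990), Pram1, Cd177, Fcnb, Cebpe, Orm1, Gm5483 and Olfm4 (0.984). The 22 points share libraries, and the neutrophil-like cluster sets most of the range. Wfdc21 was at 2717 CPM in neutrophil-like and 1.38 in other cells.

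In all other kept cells (6234 naive and 4705 Listeria) the 8 genes were near 0, and most of these cells had no UMI of any of them. Their sum in naive cells was 108 CPM (105 to 111) and in Listeria cells 59.9 (57.4 to 62.4), so the neutrophil-like level was 2074 and 3001 times as high. All 8 genes were over 1.5-fold higher in neutrophil-like than in other cells in both libraries, as were 12.8% (naive) and 14.3% (Listeria) of all genes, while 0 were lower, against 54.7% and 51.2%. S100a8 was at 40.5 and 21.6 CPM, S100a9 at 42.5 and 23.3, Camp at 9.88 and 6.27, and Ngp at 7.40 and 3.98. Lcn2 was at 3.72 and 2.42, Retnlg at 1.97 and 0.870 and Ltf at 1.65 and 1.42. Mmp8 had 8 UMIs (naive) and 2 (Listeria).

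A UMI of any of the 8 genes was found in 41.6% of the naive and 32.8% of the Listeria other cells, at median depths of 6945 and 7231 UMIs. After thinning to 2500 UMIs the shares were 18.9% and 14.1%. B cell-like cells, a lineage that does not make these proteins, had a UMI in 38.9% of naive and 30.9% of Listeria cells at median depths of 9282 and 9774, and in 13.9% and 10.3% after thinning. HSC-like cells had one in 44.7% and 32.2% at depths of 6419 and 6129, and in 21.8% (19.5% to 24.2%) and 14.4% (11.8% to 17.4%) after thinning. The thinned naive share of HSC-like cells lay above that of B cell-like cells (12.1% to 15.8%), and in the Listeria library the intervals overlapped (7.47% to 13.8% in B cell-like cells). Summed levels were 171 and 76.6 CPM in HSC-like, 152 and 72.3 in multipotent progenitor-like, 79.6 and 49.8 in megakaryocyte lineage-like and 52.8 and 36.6 CPM in B cell-like cells.

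Few cells held much of this. In the naive library 21 other cells with at least 10 UMIs of the 8 genes held 25.5% of the UMIs, and the highest had 348. In the Listeria library 5 such cells held 6.25%, and the highest had 69. The doublet score of these cells had a median of 0.0747 and 0.0514, against 0.0417 and 0.0439 for all other cells. Without them the sum was 80.6 CPM (naive) and 56.2 (Listeria), and HSC-like cells stood at 103 and 69.9 CPM against 52.1 and 36.6 in B cell-like cells. At the other end, 58.4% of the naive and 67.2% of the Listeria other cells had 0 UMIs of all 8 genes.

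Of the 7 genes with enough UMIs in other cells, 6 were lower by over 1.5-fold in the Listeria library and 0 higher, where 6.99% of 12972 genes were lower and 5.42% higher. S100a8 had a log2 ratio of -0.91 (-1.03 to -0.79), S100a9 of -0.87, Ngp of -0.89 and Retnlg of -1.18 (-1.80 to -0.60). Camp was at -0.66 and Lcn2 at -0.62. Ltf, at -0.21 (-0.73 to 0.30), did not pass. Without the cells of at least 10 UMIs, 1 gene, Retnlg, passed (-1.26), S100a8 was at -0.57 and Camp at -0.18, and the ratio of the sum went from -0.85 to -0.52. In B cell-like cells alone it was -0.53 (-0.80 to -0.27), with 1 of 4 genes, S100a9, lower by over 1.5-fold (-0.81), where 4.81% of all genes were lower and 1.74% higher. In HSC-like cells all 5 genes with enough UMIs were lower (sum -1.16, -1.34 to -0.99), where 2.82% of all genes were lower and 10.5% higher. In multipotent progenitor-like cells 5 of 5 were lower (sum -1.08), against 5.16% lower and 7.51% higher. In megakaryocyte lineage-like cells 3 of 4 were lower (sum -0.68), against 4.32% lower and 5.04% higher. The unnamed clusters (1748 naive and 1083 Listeria cells) had sums of 126 and 65.4 CPM (log2 -0.94, -1.09 to -0.80). These class ratios include the cells of at least 10 UMIs of the 8 genes. Without such cells (10 naive and 1 Listeria) the HSC-like sums were 103 and 69.9 CPM. In multipotent progenitor-like cells (4 and 2 left out) they were 82.6 and 63.9. In megakaryocyte lineage-like cells (1 and 2 left out) they were 78.0 and 46.9. In the unnamed clusters (2 and 0 left out) they were 101 and 65.4. Single genes were not compared by class without such cells. B cell-like cells were 21.3% of the naive and 8.02% of the Listeria cells, and the bearing of this makeup on the pooled ratio was not tested.

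**Figure D4:**
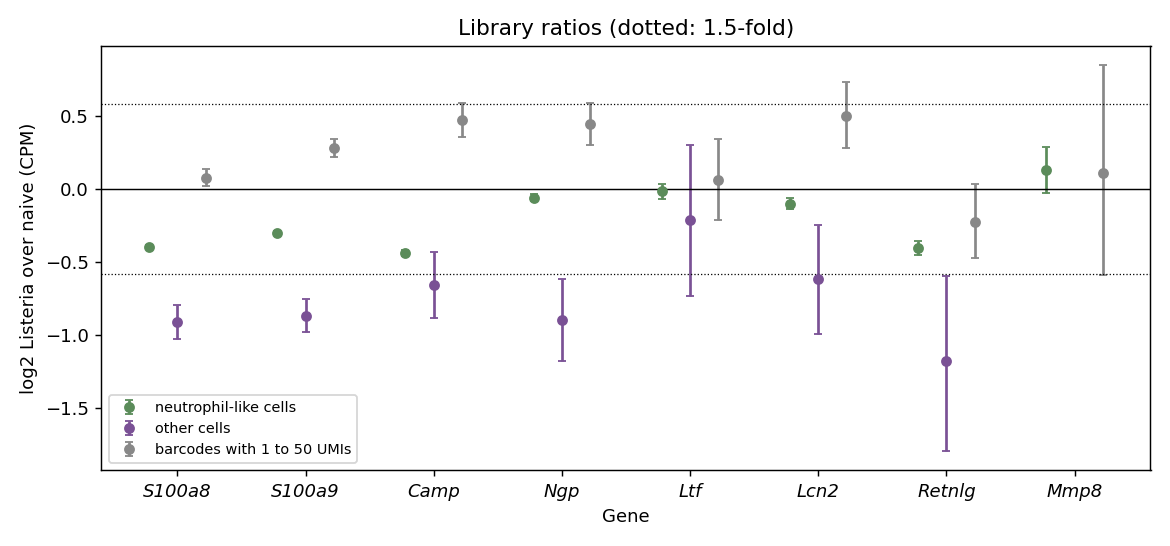
Log2 ratio of Listeria over naive CPM for each gene in neutrophil-like cells (green), other cells (purple) and barcodes with 1 to 50 UMIs (grey), with 95% counting intervals and dotted lines at 1.5-fold. Mmp8 in other cells, with 8 and 2 UMIs, is left out. Purple points lie lowest for all 7 genes shown, from -1.18 to -0.21, while grey points lie between -0.22 and 0.51.

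Barcodes with 1 to 50 UMIs, read here as free RNA rather than cells, carried far more of the 8 genes than the other cells did. The naive library had 914569 such barcodes with 1372392 UMIs in all, and the Listeria library 606228 with 2943123. The 8 genes summed there to 6055 CPM (5926 to 6187) in the naive library, and to 7078 (6982 to 7175) in the other. S100a8 was at 2529 and 2672 CPM, S100a9 at 2125 and 2587, Camp at 584 and 811, and Ngp at 383 and 521. Lcn2 was at 157 and 224, Retnlg at 145 and 124, Ltf at 114 and 119 and Mmp8 at 18.2 and 19.7. The level in other cells was 1.78% of this level (naive) and 0.846% (Listeria), and 4.88% and 0.887% of the level in barcodes with 20 to 300 UMIs.

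Between the libraries 0 of 8 genes differed by over 1.5-fold in these barcodes, where 12.6% of 7197 genes were higher and 7.82% lower. The sum had a log2 ratio of 0.23 (0.19 to 0.26), Lcn2 one of 0.51 and Camp one of 0.47, while Retnlg was at -0.22. Thus the sum was higher in the Listeria library in these barcodes and lower in its other cells. The level and the count depended on which barcodes were read. Those with 20 to 300 UMIs gave 2210 CPM (naive) and 6751 (Listeria), and there all 8 genes were higher by over 1.5-fold in the Listeria library (log2 0.93 for Retnlg to 1.93 for Camp), where 11.8% of all genes were higher and 12.4% lower. In those with 1 to 10 UMIs 2 of 7 genes, Ngp (0.73) and Lcn2 (0.74), were, against 11.7% higher and 6.1% lower. The band of 20 to 300 UMIs held 60039 naive barcodes with 8587610 UMIs, 1.78% of them mitochondrial. In the Listeria library it held 69124 with 2843438 UMIs, 4.97% of them mitochondrial. The band of 51 to 500 UMIs, not compared gene by gene, had 60387 naive barcodes (2.56% mitochondrial UMIs) and 8968 Listeria ones (20.5%). It did not hold like barcodes in both libraries. Nor did the band of 1 to 50 UMIs, where barcodes with 1 to 10 gave 96.4% (naive) and 22.9% (Listeria) of the UMIs, and mitochondrial UMIs were 13.1% and 5.13%. What this contributes to the differences between the libraries was not tested.

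The proportions of the 8 genes were set side by side in the 3 places. S100a8 made up 35.7% of their UMIs in naive neutrophil-like cells, 37.6% in other cells and 41.8% in barcodes with 1 to 50 UMIs, and 33.8%, 36.02% and 37.7% in the Listeria library. Camp made up 11.9%, 9.17% and 9.64% in the naive and 10.97%, 10.5% and 11.5% in the Listeria library. UMIs of S100a9 to those of S100a8 stood at 1.01, 1.05 and 0.840 to 1 in the naive library and at 1.08, 1.08 and 0.968 in the Listeria library. The proportion of Camp to Ngp was 1.43, 1.34 and 1.53 in the naive library. In the Listeria library it was 1.10 in neutrophil-like cells, 1.58 in other cells and 1.56 in the smallest barcodes. Within neutrophil-like subsets the same proportion ran from 4.62 in naive subset 1 to 0.400 in Listeria subset 6.

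**Figure D5:**
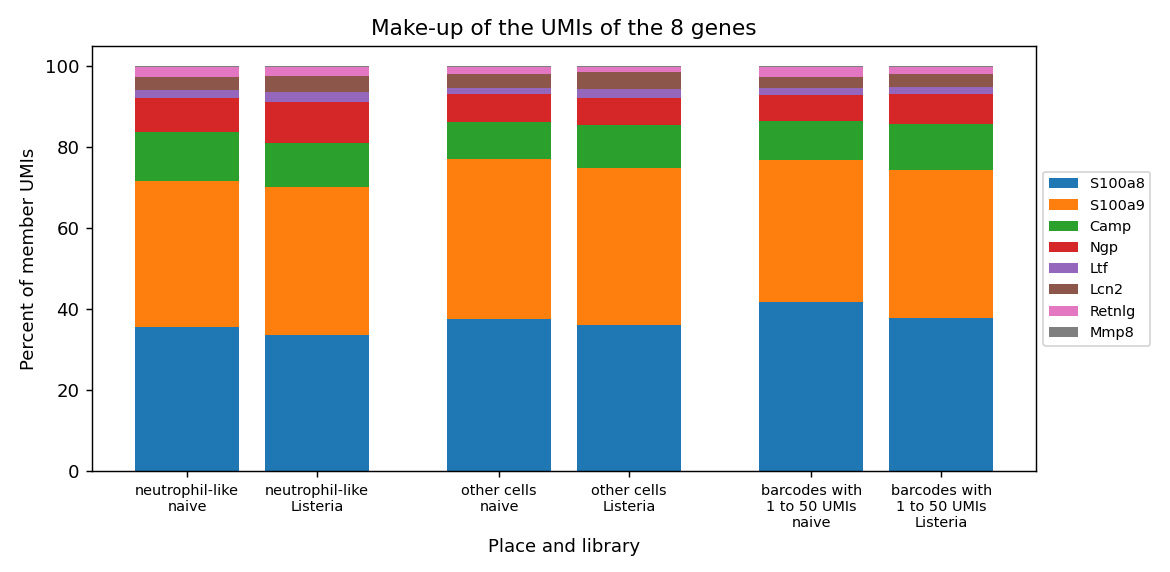
Share of each gene among the UMIs of the 8 genes (percent, stacked to 100), for neutrophil-like cells, other cells and barcodes with 1 to 50 UMIs, in each library. S100a8 and S100a9 together make up 71.8% and 70.2% in neutrophil-like cells, 77.0% and 74.9% in other cells and 76.9% and 74.3% in the smallest barcodes, naive and Listeria in turn.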

How the data were processed

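The authors deposited raw counts of UMIs for each gene in each barcode, with no normalization, and Cell Ranger 3.0.2 was run on mm10 per the submitters' processing notes. The 8 genes and all lists were chosen with earlier results of these data known. Cells were filtered at 2500 UMIs, 500 genes and 10% mitochondrial UMIs, scaled to 10000 and log-transformed. Without the 8 genes, 2000 variable genes, 30 principal components and 15 neighbours gave Leiden clusters at resolution 1 (scanpy 1.11.5, igraph 0.11.9, Python 3.11.15), named from 15 marker lists. A marker counted with a UMI in 10% of cells and a CPM at least 2 times the sum of 5 and the first quartile over clusters. The class with the highest share of counted markers gave the name if it had at least 3 and 50% of them. It also needed at least as many of the cluster's 10 leading genes as any other class. Neutrophil-like cells were split again at resolution 0.5. Doublets were scored with Scrublet and kept.

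Sums over cells gave CPM with Poisson intervals, ratios with binomial-split intervals and shares with Clopper-Pearson intervals. A gene was compared with at least 50 UMIs over both libraries and called past 1.5-fold. The named genes were the 8, up to 4 of highest CPM per list and the 10 most similar by pattern. In simulated neutrophil-like counts of 5473 genes, the interval covered the planted ratio in 99% of 100 genes set to 2-fold. It did so in 97% of 100 at 1.5-fold and in 95.6% of 5273 unchanged ones. The counts were drawn with the Poisson error that the interval assumes, and without differences between cells. The simulation thus checks the calculation only, and not how well the intervals describe the real cells. Alternatives covered filters, clustering, weighting, free RNA, doublet scores, and scaling in R 4.3.3 by TMM, from edgeR 4.0.16, or by the size factors of DESeq2 1.42.0. Leaving out subsets 3 and 7, the most loaded cells or other cells of at least 10 UMIs of the 8 genes, the 1000 UMI minimum for ratios, and reading barcodes under the minimum were chosen after seeing the data.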

Additional observations from a re-analysis of the deposited data

How the results depend on the processing

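No paired analysis was possible because each group is 1 library. Summed levels of the 8 genes in neutrophil-like cells (223498 CPM naive, 179620 Listeria) were 335514 and 289624 at clustering resolution 2, where the cells rich in primary granule enzymes formed a cluster of another name. They were 246057 and 221901 with cells weighing equally, 227889 and 182136 at 5% mitochondrial UMIs, and 242385 and 195032 without subsets 3 and 7. For the Listeria library they were 177642 from 1000 UMIs and 180871 with 6 of 20 markers per cell. The log2 ratio of the sum (-0.32) was -0.43 with TMM, -0.45 with median-ratio size factors and -0.33 from 1000 UMIs.

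In other cells (108 and 59.9 CPM) the sum was 52.8 and 36.6 in B cell-like cells, 171 and 76.6 in HSC-like cells and 80.6 and 56.2 without cells of at least 10 UMIs of the 8 genes, and 111 for the naive library from 1000 UMIs. Without those loaded cells the log2 ratio was -0.52 and 1 gene, in place of 6, was lower by over 1.5-fold. Thinning lowered the share of other cells with a UMI from 41.6% and 32.8% to 18.9% and 14.1%. In barcodes of 20 to 300 UMIs the sum was 2210 and 6751 CPM, and for the Listeria library 7773 in those of 1 to 10. The share of all genes past 1.5-fold either way was 13.4%, 12.4% and 20.5% in neutrophil-like cells, other cells and the smallest barcodes. It was 2.14%, 3.73% and 4.89% at 2-fold, 40.9%, 32.4% and 45.0% with no minimum, and 6.11% in neutrophil-like cells at 200 UMIs. Under scaling, doublet and cell-removal alternatives 78 of 80 single-gene ratios kept their sign. Under the 8 alternatives for levels in neutrophil-like cells, 57 of 64 pairs of levels did, and the 7 others were Ngp, Lcn2 and Ltf with cells weighing equally and at resolution 2, and Ltf with 6 of 20 markers per cell. Both counts include alternatives that could not turn a sign. Scaling lowered all ratios of a place by the same amount, so a negative ratio stayed negative. Resolution 0.5 gave the same 141 and 134 neutrophil-like cells. The causes were not tested. Depth limits Mmp8 outside the neutrophil-like cells and all genes in subset 7.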

Other observations

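Barcodes below the cell minimum also held neutrophil RNA. Of 1927 naive barcodes with at least 500 and under 2500 UMIs, 26 carried at least 6 of the 20 neutrophil markers, and of 530 Listeria barcodes 24 did, with median depths of 1786 and 1906.5 UMIs. The 8 genes summed to 194779 CPM in the naive and 70225 in the Listeria ones. Retnlg was at 10940 and 9625 CPM, above its summed level in the kept neutrophil-like cells of both libraries (5276 and 3990). With cells weighing equally the kept cells stood at 11407 and 9205 CPM, so the naive comparison depended on the weighting. Both values lay below those of kept subset 6 (31009 and 32369). Camp was at 13247 CPM in the naive barcodes (580 UMIs) and 234 in the Listeria ones (10 UMIs), Ngp at 15988 and 210, and Ltf at 3289 and 304. S100a8 was at 68200 and 19904 CPM and S100a9 at 77907 and 37122. Lcn2 was at 4294 CPM (188 UMIs) and 2453 (105 UMIs). These barcodes were chosen after seeing the data, the mitochondrial filter was not applied to them, and how their depth bears on the difference was not tested.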
